A study of Mus musculus with 8 samples.

Results

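The genes described here are 10 genes of the pre-B cell receptor and of early B cell development, namely Vpreb1, Vpreb3, Igll1, Blnk, Ebf1, Pou2af1, Mzb1, Cd79b, Ly6d and Pax5. They are 10 of the 20887 mouse genes that a named probe reads on the array, and they were chosen by their measured levels on these same arrays, in particular by the difference between double mutant and Ezh2-deleted arrays. That difference is therefore given as a description with no test. Of the 10 genes 9 were well above background on at least 2 of the 8 arrays and entered the fit of 13182 genes, while Pax5 was not.

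Marrow of C57BL/6 background from 4 kinds of mice was transplanted into lethally irradiated wild-type recipients of the CD45.1 type, and cells were sorted from the recipients 2 months later. The groups are the double mutant (JAK2V617F/Ezh2Δ/Δ, from JAK2V617F;Ezh2flox/flox;Cre-ERT2 marrow), Ezh2-deleted (Ezh2Δ/Δ, from Ezh2flox/flox;Cre-ERT2), JAK2V617F (from JAK2V617F;Cre-ERT2) and WT (from Cre-ERT2). All 4 genotypes carry Cre-ERT2, a recombinase switched on by tamoxifen or its metabolites, and Ezh2 was deleted at 4 weeks after transplantation. From each genotype 2 fractions were sorted, the megakaryocyte and erythroid progenitors (MEP) and the LSK fraction (no lineage markers, c-Kit and Sca-1 present) that holds the stem cells, and 20 ng of RNA of each fraction was labelled for 1 array. Each of the 8 groups thus has 1 array and no replicate of its own, the number of animals behind an array is not stated, the ages and the promoters behind Cre-ERT2 and JAK2V617F are not stated, and the labels do not say whether recipient cells were gated out.

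Ezh2 is a histone methyltransferase, the enzyme of polycomb repressive complex PRC2 that keeps developmental genes silent. JAK2V617F is a mutant cytokine receptor kinase that signals without cytokine and drives myeloproliferative neoplasms in humans. In early B cell development the factors Ebf1 and Pax5 turn on the B cell programme. A newly made immunoglobulin heavy chain is then tested before any light chain exists, by pairing it with a surrogate light chain made of the Vpreb1 and Igll1 proteins. This pre-B cell receptor signals through the Cd79a and Cd79b chains to the kinase Syk and the adapter Blnk. These genes are known for their expression in B cell precursors of the marrow, and megakaryocyte and erythroid progenitors are not B cell precursors.

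Promoter sequences are shown for the surrogate light chain genes and for Blnk, since these are the genes on which the difference between the genotypes is described most fully below. Each is the 250 bases before the annotated gene start, from RefSeq with build GRCm38.p6, written 5′ to 3′ on the strand of the gene. Capitals mark matches on either strand to 3 motifs, the octamer ATGCAAAT read by POU factors, the core CCCNNGGG of EBF sites and the E-box CAGGTG.
Vpreb1: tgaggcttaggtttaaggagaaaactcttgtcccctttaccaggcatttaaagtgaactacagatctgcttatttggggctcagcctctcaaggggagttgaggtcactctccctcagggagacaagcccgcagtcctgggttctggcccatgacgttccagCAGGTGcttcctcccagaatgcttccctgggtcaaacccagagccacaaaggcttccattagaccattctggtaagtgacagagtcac
Igll1: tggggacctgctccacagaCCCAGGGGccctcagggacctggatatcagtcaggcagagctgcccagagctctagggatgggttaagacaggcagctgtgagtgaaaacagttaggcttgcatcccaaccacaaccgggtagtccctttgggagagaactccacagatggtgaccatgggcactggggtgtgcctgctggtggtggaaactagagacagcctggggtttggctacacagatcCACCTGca
Vpreb3: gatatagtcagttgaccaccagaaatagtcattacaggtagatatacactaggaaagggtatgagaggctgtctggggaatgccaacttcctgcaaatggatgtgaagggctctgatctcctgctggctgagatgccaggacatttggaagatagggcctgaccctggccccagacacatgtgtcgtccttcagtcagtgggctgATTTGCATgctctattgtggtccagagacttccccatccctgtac
Blnk: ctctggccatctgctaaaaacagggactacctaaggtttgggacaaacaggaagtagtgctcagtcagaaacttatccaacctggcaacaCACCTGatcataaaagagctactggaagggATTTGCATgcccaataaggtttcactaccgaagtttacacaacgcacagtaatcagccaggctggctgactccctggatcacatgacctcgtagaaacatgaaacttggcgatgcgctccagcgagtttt

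The Vpreb1 window lies at chr16:16869256-16869505 and the Igll1 window at chr16:16863986-16864235, both on the minus strand, and the starts of these genes are 5270 bases apart. The Vpreb3 window lies at chr10:75948050-75948299 on the plus strand, and the Blnk window at chr19:40994222-40994471 on the minus strand. Vpreb3 held an octamer 45 to 38 bases before its start. Blnk held an octamer at 130 to 123 and an E-box at 160 to 155 bases before its start. Igll1 held an EBF core at 231 to 224 and an E-box at 8 to 3 bases before its start, and Vpreb1 an E-box at 88 to 83. Of all 32851 promoter windows of this length 1.60% held the octamer, 11.8% the EBF core and 17.2% the E-box. A window was matched for 7 of the 10 genes, and Pax5, Pou2af1 and Ebf1 had no match to the 3 motifs in theirs. These matches are descriptions of letters and were not tested as binding sites.

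A level is the log2 signal of a gene minus the 75th percentile over all probes of its array, so 0 is the 75th percentile and a step of 1 is a 2-fold step. An array on which a probe was not well above background, by the flag of the scanner software, is called dim for that gene, and its value is only an upper bound. Folds against a dim array are therefore given as "at least", computed against the lowest signal well above background on that array or the dim value itself if higher. With 1 array per group a difference between 2 arrays carries no replicate error. In such bulk samples fewer cells of a kind and less RNA per cell cannot be told apart.

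Markers of the sorted fractions were read as a check of the sort. Ly6a, which encodes Sca-1, was between 3.46 and 3.91 on the 4 LSK arrays, and on the MEP arrays it was at -2.65 in the double mutant and dim in the others. Klf1, an erythroid factor, was between 3.28 and 4.28 on the MEP arrays and reached at most -1.35 on the LSK arrays. Gata1, another erythroid factor, was between 6.37 and 7.10 in MEP but still between 2.65 and 4.29 in LSK. The globin gene Hbb-bt went the other way in double mutant cells (6.28 in MEP, 7.91 in LSK). It did so in Ezh2-deleted (3.55 and 5.90) and JAK2V617F cells (3.25 and 5.86) too. Ezh2 itself was at 3.57 in double mutant, 4.04 in Ezh2-deleted, 4.23 in JAK2V617F and 4.14 in WT MEP, and at 3.59 in double mutant, 3.36 in Ezh2-deleted, 3.83 in JAK2V617F and 3.50 in WT LSK. Which exon its probe reads is not given in the sources used here, so its level cannot serve as a check of the deletion. Xist, the RNA of the inactive X chromosome, ranged from 1.57 to 2.99 in double mutant and Ezh2-deleted samples, against -3.07 or less in JAK2V617F and WT samples, while the Y-linked genes Eif2s3y and Ddx3y were dim on the double mutant and Ezh2-deleted arrays and at 1.34 or more on the others. The sex of the marrow thus follows Ezh2 status on all 8 arrays and cannot be told apart from it, whereas the double mutant and Ezh2-deleted arrays are of the same sex, as are JAK2V617F and WT. All arrays lie on 1 slide, where rows hold the cell type and columns the genotype, so place on the slide cannot be told apart from the groups either.

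The surrogate light chain genes were far higher in Ezh2-deleted MEP and LSK than on any other array, and the double mutant lay between these and the arrays with Ezh2 intact, except for Igll1 in MEP. Vpreb1, which encodes the variable-like part of the surrogate light chain, was at 1.36 in double mutant, 4.49 in Ezh2-deleted, -0.50 in JAK2V617F and -1.13 in WT MEP. In LSK its level was 1.45 in double mutant, 4.72 in Ezh2-deleted, 0.35 in JAK2V617F and 0.10 in WT. The order of the 4 genotypes was the same in both fractions, with the double mutant 8.76-fold below the Ezh2-deleted array in MEP and 9.64-fold below it in LSK. Vpreb1 and Vpreb2 encode nearly identical proteins, so that signal of one at the probe of the other cannot be told apart.

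Igll1 encodes lambda 5, the constant-like part of the surrogate light chain. Its level in MEP was -2.07 in double mutant, 1.63 in Ezh2-deleted, -3.88 and dim in JAK2V617F, and -0.84 in WT. In LSK it was -2.31 in double mutant and 1.80 in Ezh2-deleted, and dim in JAK2V617F (-4.06) and WT (-5.97). The double mutant was 13-fold below the Ezh2-deleted array in MEP and 17.3-fold below it in LSK. WT MEP was the exception among the arrays without deletion, with Igll1 above the double mutant there and dim in WT LSK.

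Vpreb3, whose protein associates with newly made heavy chains, had the widest range of the 10 genes. In MEP it was at 0.21 in double mutant and 4.02 in Ezh2-deleted, and dim in JAK2V617F (-3.35) and WT (-2.66). In LSK it was at 0.08 in double mutant and 4.10 in Ezh2-deleted, and dim in JAK2V617F (-5.01) and WT (-4.26). The double mutant signal was 7.15% of that of the Ezh2-deleted array in MEP and 6.16% in LSK, and against the arrays without deletion it was at least 8.81-fold above JAK2V617F in MEP and at least 10.8-fold above it in LSK. The probe therefore separated 3 tiers, Ezh2-deleted, double mutant and the arrays with Ezh2 intact, in each fraction.

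Blnk and Cd79b act in the signalling of the receptor. Blnk, the adapter that links Syk to its targets, was well above background on all 8 arrays. In MEP it was at -0.11 in double mutant, 2.97 in Ezh2-deleted, -2.13 in JAK2V617F and -0.63 in WT, and in LSK at 1.83 in double mutant, 3.97 in Ezh2-deleted, -0.87 in JAK2V617F and 1.24 in WT. It was 8.46-fold lower in the double mutant than in the Ezh2-deleted MEP and 4.40-fold lower in LSK. Cd79b, a signalling chain of the receptor, was at 1.48 in double mutant, 3.11 in Ezh2-deleted, 1.17 in JAK2V617F and 0.85 in WT MEP. In LSK its levels lay within 3.97 to 4.37, with 4.08 in double mutant, 4.10 in Ezh2-deleted, 4.37 in JAK2V617F and 3.97 in WT. The difference between the double mutant and Ezh2-deleted arrays was thus -1.63 in MEP and -0.02 in LSK. Cd79a, the other signalling chain and not among the 10 genes, was above background on the Ezh2-deleted LSK array alone (-3.04).

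Among the regulators, Ebf1 and Pou2af1 were above background on the Ezh2-deleted arrays alone. Ebf1, a factor that specifies the B lineage, was at -1.36 in Ezh2-deleted MEP and -0.65 in Ezh2-deleted LSK and dim on the other 6 arrays (between -6.02 and -3.90), so that the double mutant lay at least 3.17-fold below it in MEP and at least 7.22-fold below it in LSK. Pou2af1, a coactivator that binds POU factors at octamer sites, was at 0.27 in Ezh2-deleted MEP and 0.44 in Ezh2-deleted LSK. It was dim on the other arrays, between -5.34 and -4.31 where Ezh2 was intact and at -2.88 in double mutant MEP and -3.27 in double mutant LSK. The double mutant lay at least 8.89-fold below the Ezh2-deleted array in MEP and at least 13.1-fold below it in LSK. Pax5, which commits cells to the B lineage, was dim on all 8 arrays with both of its probes, so no fold is given. Its highest value, -3.70, was on the Ezh2-deleted MEP array.

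Mzb1, a chaperone of the endoplasmic reticulum that helps assemble immunoglobulin, followed the surrogate light chain genes. It was at -2.66 in double mutant and 0.47 in Ezh2-deleted MEP, at -1.73 in double mutant and 1.25 in Ezh2-deleted LSK, and dim on the 4 arrays with Ezh2 intact (between -4.78 and -3.91). The double mutant was 8.78-fold lower in MEP and 7.89-fold lower in LSK. Ly6d, a surface marker of lymphoid progenitors turning to the B lineage, had another pattern. Its level in MEP was -1.76 in double mutant and -0.12 in Ezh2-deleted cells, and it was dim in JAK2V617F (-3.94) and WT (-3.69). In LSK it was 2.06 in double mutant, 1.88 in Ezh2-deleted, -1.38 in JAK2V617F and -0.90 in WT. In LSK the double mutant minus Ezh2-deleted difference was thus 0.18, and in MEP the double mutant was 3.11-fold lower.

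**Figure D1:**
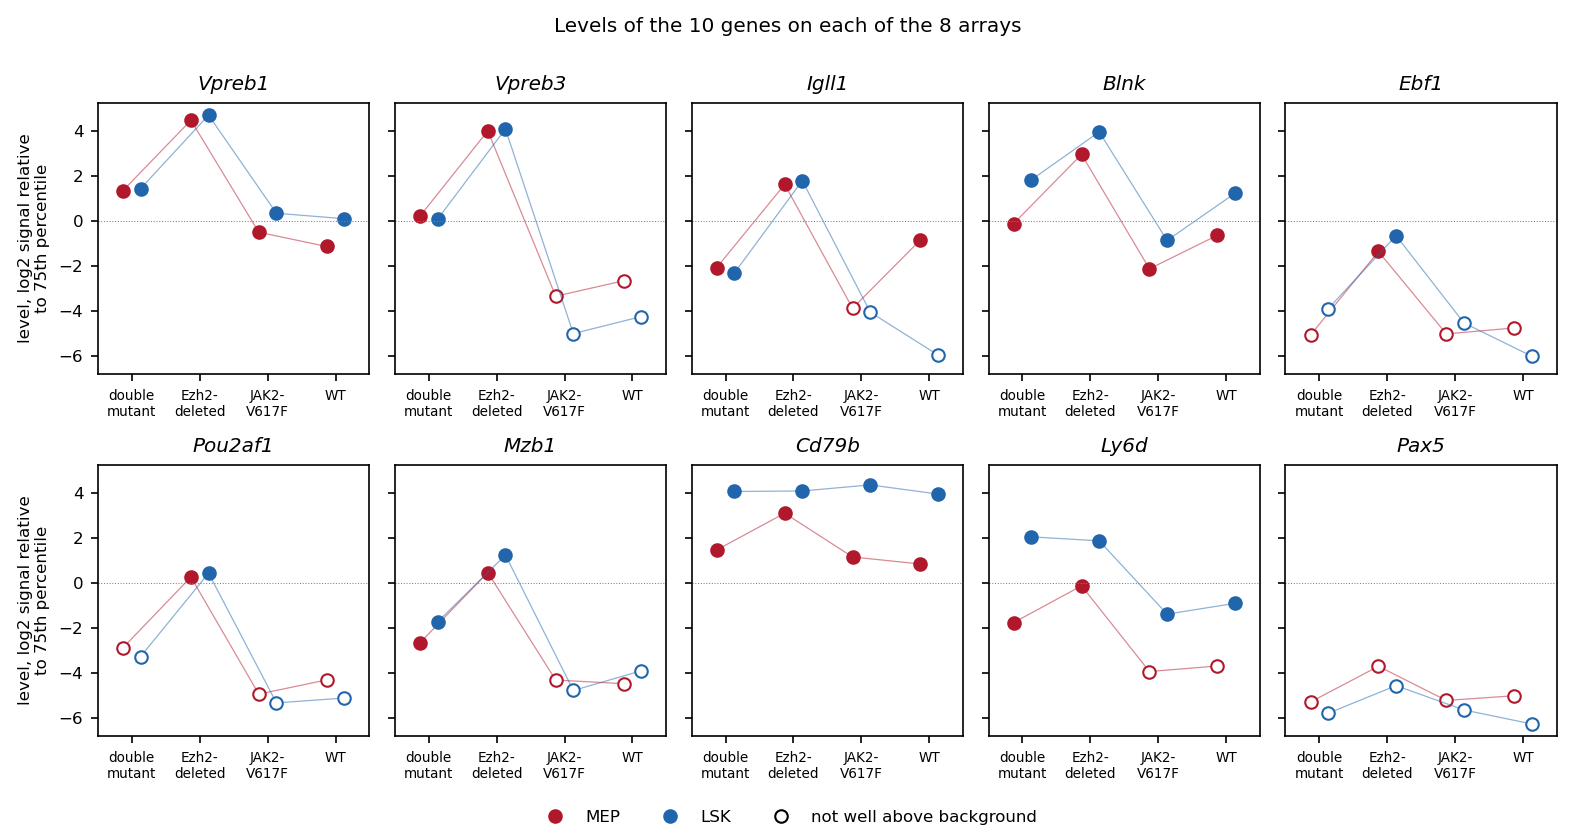
Each panel shows 1 gene, with the level (log2 signal minus the array's 75th percentile) on the vertical axis and the 4 genotypes on the horizontal axis. Points are single arrays, red for MEP and blue for LSK, open where the probe was not well above background, and lines join the arrays of one fraction. The Ezh2-deleted array stands highest in MEP and in LSK for 7 genes, and in MEP but not in LSK for Cd79b and Ly6d, while all points of Pax5 are open.

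Set side by side, 9 of the 10 genes were at least 2-fold lower in double mutant than in Ezh2-deleted MEP, where 2.81% of all tested genes were. In LSK 7 of the 10 were, against 2.58% of all genes, and the same 7 genes were lower in both fractions, against 0.463%. The median difference over the genes with a value was -3.13 in MEP and -2.98 in LSK, beside medians of -0.17 and 0.08 over all tested genes. These shares describe the choice of the genes and carry no test. Of the 61 genes lower in both fractions, ranked by the smaller of both differences, Vpreb3, Igll1, Pou2af1, Vpreb1 and Mzb1 held ranks 1 to 5, Blnk rank 13 and Ebf1 rank 18.

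**Figure D2:**
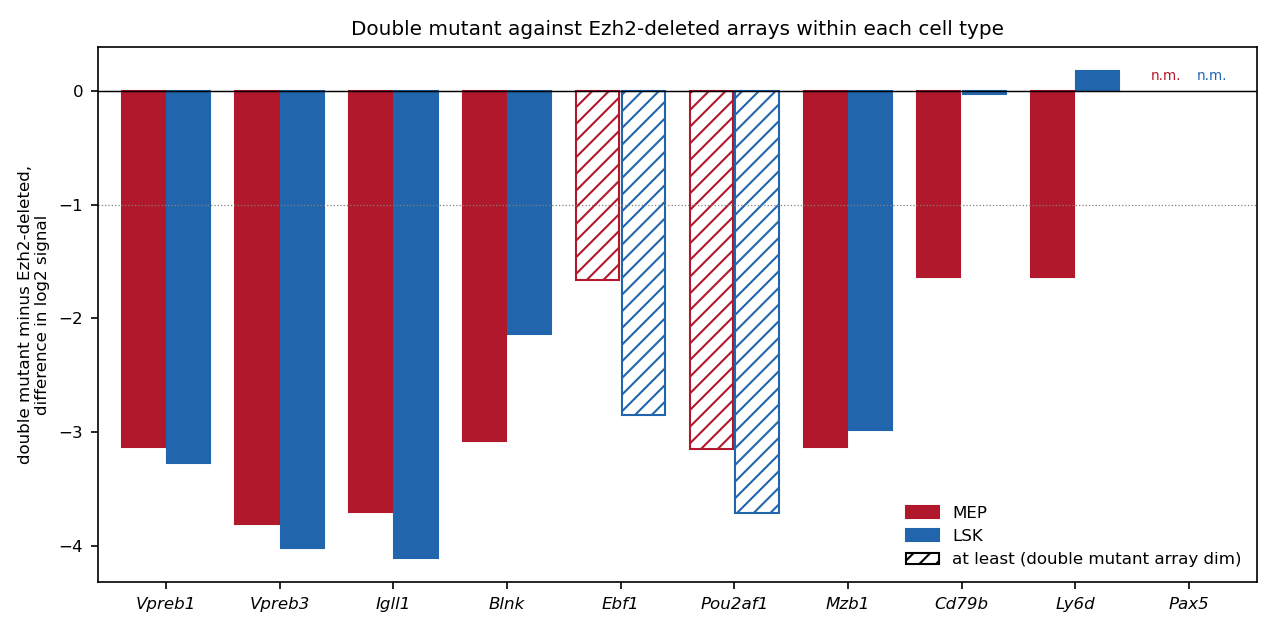
Bars give the difference in log2 signal, double mutant minus Ezh2-deleted, for each of the 10 genes in MEP (red) and LSK (blue), from 1 array per group. Hatched bars are bounds, since the double mutant array was dim, the dotted line marks a 2-fold decrease, and n.m. marks Pax5, which was dim on both arrays. Cd79b and Ly6d were lower in MEP (-1.63 and -1.64) and near 0 in LSK.

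**Figure D3:**
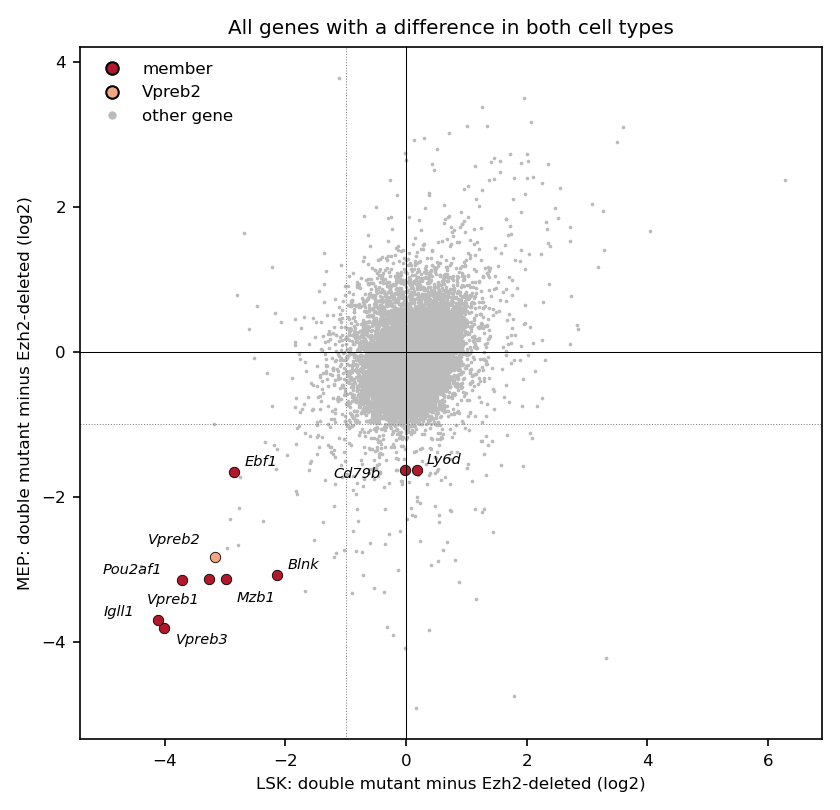
Each point is a gene with a difference between double mutant and Ezh2-deleted arrays in both fractions, 11594 genes in all, with the LSK difference on the horizontal and the MEP difference on the vertical axis, both in log2. Red points are the genes described here, the orange point is Vpreb2, and dotted lines mark a 2-fold decrease. Igll1 (-4.11 in LSK, -3.70 in MEP) and Vpreb3 (-4.02 in LSK, -3.81 in MEP) lie at the lower left, away from the mass of genes around 0.

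Against WT, the Ezh2-deleted arrays were at least 2-fold higher for 9 of the 10 genes in MEP (2.87% of all genes) and for 8 in LSK (3.84%). Vpreb1 was 49.2-fold higher in Ezh2-deleted than in WT MEP and 24.5-fold higher in LSK. Blnk was 12.1-fold higher in MEP and 6.65-fold higher in LSK. Cd79b was 4.80-fold higher in MEP and 1.1-fold higher in LSK. For Vpreb3, dim on both WT arrays, the Ezh2-deleted signal was at least 102-fold higher in MEP and at least 275-fold higher in LSK. This comparison shares the Ezh2-deleted arrays with the one above, and it joins the deletion with the sex of the marrow.

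The double mutant was also above JAK2V617F for several genes. At least 2-fold higher were 4 of the 10 genes in MEP (4.6% of all genes), namely Vpreb1, Vpreb3, Blnk and Ly6d, and 6 in LSK (4.29%), where Igll1 and Mzb1 joined them. Vpreb1 was 3.62-fold higher in MEP and 2.15-fold higher in LSK, Blnk was 4.05-fold higher in MEP and 6.49-fold higher in LSK, and Ly6d was at least 2.25-fold higher in MEP and 10.9-fold higher in LSK. Ebf1, Pou2af1 and Pax5 were dim in both genotypes. The double mutant arrays enter this comparison and the comparison with Ezh2-deleted arrays alike.

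JAK2V617F against WT uses arrays of the same sex that the choice of the genes did not compare. With limma, in a fit of cell type and genotype over all 8 arrays, 0 of the 9 tested genes were called higher or lower (2 against 2 arrays, Benjamini-Hochberg adjusted p under 0.05), where 0.0834% of all genes were higher and 0.0152% lower. Of these 9 genes, Vpreb3, Ebf1, Pou2af1 and Mzb1 were dim on all 4 JAK2V617F and WT arrays and entered the fit through the arrays with Ezh2 deleted, so they had no measured difference to call, and Igll1 and Ly6d had one in 1 fraction. Blnk alone had an unadjusted limma p under 0.05. It was 3.48-fold lower in JAK2V617F (log2 -1.80, SE 0.31, n = 2 against 2, limma adjusted p = 0.126), lower in both fractions, by 2.82-fold in MEP and 4.29-fold in LSK. The limma adjusted p of Blnk ranged from 0.0015 to 0.562 over the alternatives tried. Vpreb1 differed by 0.44 (SE 0.33, limma adjusted p = 0.999). Between single arrays, 2 genes were at least 2-fold lower in JAK2V617F MEP, Blnk and Igll1 (2.12% of all genes), and 1 in LSK, Blnk (4.32%).

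MEP against LSK divides the 10 genes in another way. Of the 9 tested genes limma called 3 lower in MEP (19.4% of all genes) and 0 higher (17.3%). Cd79b averaged 1.65 ± 1.01 in MEP and 4.13 ± 0.17 in LSK (SD, n = 4 each), a 5.58-fold decrease in MEP (log2 -2.48, SE 0.37, limma adjusted p = 0.0023). Blnk averaged 0.02 ± 2.14 in MEP and 1.54 ± 1.99 in LSK and was lower in MEP within each genotype (log2 -1.52, SE 0.22, limma adjusted p = 0.0018). Ly6d averaged -2.38 ± 1.79 in MEP and 0.42 ± 1.81 in LSK (log2 -2.79, SE 0.29, limma adjusted p = 0.0005), with 2 of the 4 MEP arrays above background, and was 4.93-fold lower with dim arrays at their bound.

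The surrogate light chain genes were not called between the fractions. Vpreb1 averaged 1.05 ± 2.52 in MEP and 1.65 ± 2.12 in LSK (log2 -0.60, SE 0.23, n = 4 against 4, limma adjusted p = 0.0818). On the Ezh2-deleted arrays alone its level in MEP was 0.23 log2 units below that in LSK, and that of Vpreb3 0.09 below. Igll1 was not called either (limma adjusted p = 0.239), with 3 MEP and 2 LSK arrays above background. Ebf1, Pou2af1 and Mzb1 were above background only on arrays with Ezh2 deleted and entered the fit through these, so their test compares mostly dim values and nothing is read from it. At an unadjusted limma p under 0.05, Vpreb1 was lower in MEP, and Vpreb3 was higher (log2 0.83, limma adjusted p = 0.0962). Vpreb3 was dim on the 4 arrays with Ezh2 intact, where its dim values were higher in MEP. The 75th percentile that levels are set against was a signal of 195 to 231 in MEP and 236 to 330 in LSK, so the same dim signal gives a higher level in MEP.

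The 10 genes were set beside 71 other B-lineage genes, listed by role. A probe reads 69 of them, and 57 were tested. Between double mutant and Ezh2-deleted arrays limma called 1 of them lower and 0 higher, where 0.0455% of all genes were lower and 0.0228% higher. At an unadjusted limma p under 0.05, 15 of the 57 were lower and 0 higher, where 3.18% of all genes were lower and 3.8% higher, and the list median was -0.45 beside -0.05 over all genes. The called gene was Vpreb2, another surrogate light chain gene. It was at -1.18 in double mutant and 1.65 in Ezh2-deleted MEP, and at -1.27 in double mutant and 1.90 in Ezh2-deleted LSK, 8.01-fold lower (log2 -3.0, SE 0.29, n = 2 against 2, limma adjusted p = 0.0432). Since its probe may read Vpreb1 too, it is not independent of the choice of Vpreb1. Its limma adjusted p ranged from 0.0008 to 0.568 over the alternatives, and the number of listed genes called from 0 to 3.

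Between single arrays, 5 of the 57 tested genes (8.77%) were at least 2-fold lower in the double mutant in both fractions, where 0.463% of all tested genes were, and 0 were higher in both. Among them were Vpreb2, Lef1, Irf4 and Cd93. Cd93, a surface receptor of early progenitors, was at 0.74 in double mutant and 2.46 in Ezh2-deleted MEP, and at 5.43 in double mutant and 6.49 in Ezh2-deleted LSK. Lef1, a transcription factor of early B and T cells, was above background on the Ezh2-deleted arrays alone, and Irf4 was lower in double mutant MEP by at least 2.41-fold and in double mutant LSK by 3.53-fold. Irf4 is a factor of pre-B cells and antibody-secreting cells.

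Of the 69 other listed genes with a probe, 34 were above background on all 8 arrays, 28 on some and 7 on none. Of all 20887 genes with a probe, 10467 were above background on all 8 arrays, a share close to that of the list. Rag1, which cuts the antigen receptor genes, was above background on the Ezh2-deleted LSK array alone (-1.44). Rag2, listed in the same role, did not differ in this way. It was at -2.50 in Ezh2-deleted and -2.49 in WT LSK and dim on the other arrays. Dntt, which adds bases at the cut ends, was at 0.17 in double mutant, 3.43 in Ezh2-deleted and -1.23 in WT MEP and dim in JAK2V617F MEP. In LSK it reached 7.81 in double mutant, 8.34 in Ezh2-deleted, 5.43 in JAK2V617F and 7.32 in WT. Of 14 later B cell surface genes with a probe, 5 were above background on all 8 arrays (Cd22, Cd37, Cd72, Cd74 and Tnfrsf13c), 5 on some and 4 on none. The 4 were Ms4a1, which encodes CD20 of mature B cells, Fcer2a, Fcrla and Fcmr, and the signalling genes Blk and Bank1 and the plasma cell gene Tnfrsf17 were dim on all 8 arrays too. Cd40, a receptor by which T cells activate B cells, was above background on the Ezh2-deleted MEP array alone (-0.94).

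**Figure D4:**
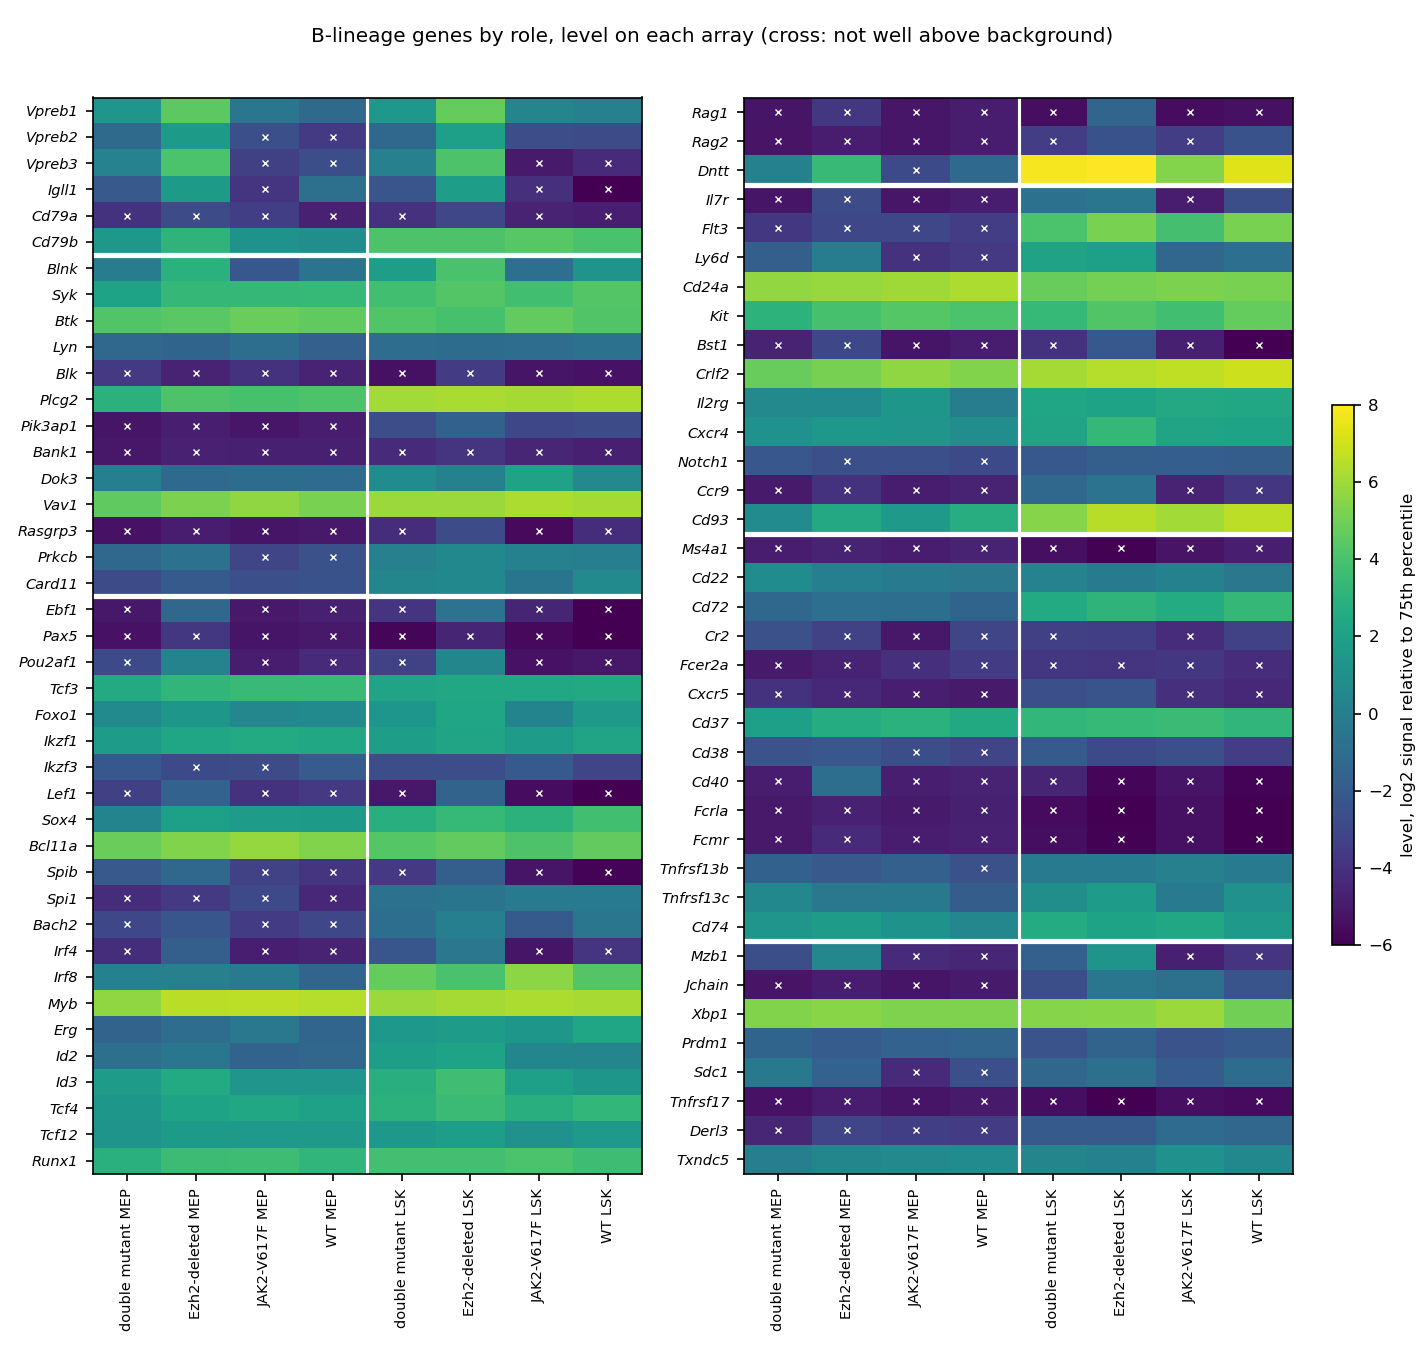
Rows are B-lineage genes with a probe, the 10 genes described here included, ordered by role, and columns are the 8 arrays, MEP left of LSK. Colour gives the level (log2 signal minus the array's 75th percentile), a cross marks an array on which the gene was not well above background, and thick lines part the roles. The rows of Vpreb1, Vpreb2, Vpreb3, Igll1, Pou2af1 and Mzb1 are brightest on the Ezh2-deleted arrays, while the rows of Ms4a1, Fcrla and Fcmr are crossed throughout.

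In the other contrasts the list behaved as follows. For Ezh2-deleted against WT limma called 3 of the 57 higher (0.228% of all genes) and 0 lower (0.0228%), among them Vpreb2 and Spib, a factor of the PU.1 family. Vpreb2 averaged 1.77 in Ezh2-deleted and -3.20 in WT (SE of the difference 0.29, n = 2 against 2, limma adjusted p = 0.0017), with 1 of the 2 WT arrays above background. With the dim WT MEP array at its bound it was at least 23.3-fold higher in Ezh2-deleted cells. Spib was dim on both WT arrays and at least 3.60-fold higher in Ezh2-deleted cells. It was above background only on the Ezh2-deleted arrays and the double mutant MEP array, and entered the fit through these. Its call (n = 2 against 2, limma adjusted p = 0.0403) rests on the dim WT values as measured, so nothing is read from it. For the double mutant against JAK2V617F limma called 0 either way (0.235% of all genes higher, 0.0531% lower), while without adjustment 10 of the 57 had p under 0.05 on the higher side and 8 on the lower, where 6.43% and 8.84% of all genes did. For JAK2V617F against WT limma called 0, and without adjustment 2 of the 57 had p under 0.05 on the higher side and 3 on the lower, where 3.47% and 3.54% of all genes did. For MEP against LSK limma called 32 of the 57 lower (19.4% of all genes) and 5 higher (17.3%), with a list median of -0.97 beside 0.12 over all genes. The 5 were Bcl11a, Cd24a, Lef1, Spib and Tcf3, of which Lef1 was dim on 6 and Spib on 5 of the 8 arrays, and the same dim signal gives a higher level in MEP. Of the 32 lower genes, Flt3, Spi1, Jchain, Pik3ap1, Derl3, Rag2, Il7r, Ccr9 and Cxcr5 were dim on every MEP array. They entered the fit through LSK arrays alone, so the filter favoured a lower call for them and nothing is read from it.

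Markers of other cell types were summed on the linear scale, as signal divided by the array's 75th percentile, to set them beside these genes. Summed in the same way, the 10 genes reached 8.31 in double mutant, 62.2 in Ezh2-deleted, 3.55 in JAK2V617F and 3.86 in WT MEP, and 29.1 in double mutant, 87.9 in Ezh2-deleted, 23.2 in JAK2V617F and 19.8 in WT LSK. The sum of 13 T cell genes was 19.9 in double mutant and 22.1 in Ezh2-deleted MEP, and 55.4 in double mutant and 37.3 in Ezh2-deleted LSK. Of these genes, Cd3d, Cd3g and Bcl11b were dim on all 8 arrays, while Cd3e, Cd4, Lat, Lck and Thy1 were above background on all 8. At most 9 of the 13 were above background on any array. The sum of 13 plasmacytoid dendritic cell genes, most of it Siglech, was 700 in double mutant and 509 in Ezh2-deleted MEP, and 521 in double mutant and 486 in Ezh2-deleted LSK.

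Megakaryocyte, neutrophil and erythroid markers differed between the same arrays. In MEP the sum of 8 megakaryocyte genes was 122 in double mutant and 541 in Ezh2-deleted cells, and that of 11 neutrophil genes was 700 in double mutant and 304 in Ezh2-deleted cells. Most of this neutrophil sum was Csf3r, with 374 in double mutant and 253 in Ezh2-deleted MEP. In LSK the megakaryocyte sum was 89.2 in double mutant and 65.6 in Ezh2-deleted cells, and the neutrophil sum was 1352 in double mutant and 811 in Ezh2-deleted cells. The sum of 11 erythroid genes was 414 in double mutant and 499 in Ezh2-deleted MEP, and 270 in double mutant and 70.7 in Ezh2-deleted LSK. Most of the LSK sum was the globin gene Hbb-bt, with 241 in double mutant and 59.7 in Ezh2-deleted cells. The part of these markers in the difference of the B-lineage genes was not tested. All 11 neutrophil genes were above background on the double mutant and Ezh2-deleted arrays of both fractions, and of the megakaryocyte genes 7 of 8 were on the double mutant MEP array and 8 of 8 on the other 7 arrays. The remaining lists had sums of 29.9 in double mutant and 25.6 in Ezh2-deleted MEP for 9 NK cell genes, 15.2 in double mutant and 11.0 in Ezh2-deleted MEP for 7 monocyte and macrophage genes, and 15.5 in double mutant and 18.1 in Ezh2-deleted MEP for 10 stem and multipotent progenitor genes. In LSK these sums were 68.3 in double mutant and 43.3 in Ezh2-deleted cells for NK cell genes, 38.9 in double mutant and 18.5 in Ezh2-deleted cells for monocyte and macrophage genes, and 272 in double mutant and 364 in Ezh2-deleted cells for stem and multipotent progenitor genes. Across all 4 genotypes the megakaryocyte sum ranged from 122 to 541 in MEP and from 65.6 to 94.4 in LSK.

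The genes most like these were found by the Pearson correlation over the 8 arrays, after centring on each cell type, with the mean of the member genes, among 2498 other genes that ranged over at least 2 log2 units. The points share a slide and include dim values, and genes were ranked on arrays that had chosen the members, so r is a description. Vpreb2 stood first (r = 0.991), and among the next were Alpl (0.968), an alkaline phosphatase, Fxyd6 (0.962), a regulator of the sodium pump, Gfra2 (0.954), a receptor of the growth factor neurturin, Id3 (0.953), an inhibitor of E proteins, Rnase12 (0.943) and Spib (0.942). Gfra2 was at -2.35 in double mutant and 0.61 in Ezh2-deleted MEP, and dim in double mutant and at 0.89 in Ezh2-deleted LSK. Id3 was above background on all 8 arrays, at 1.68 in double mutant and 2.53 in Ezh2-deleted MEP and at 2.79 in double mutant and 3.70 in Ezh2-deleted LSK. Among the 10 genes themselves, r with the mean of the others was between 0.85 and 0.98 for 8, and 0.60 for Cd79b and -0.04 for Pax5.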

How the data were processed

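Scanner files of 8 one-colour Agilent arrays were used. Per the file headers, Agilent Feature Extraction 10.7.1.1 made the deposited intensity values, background-subtracted and detrended with no normalization between arrays. The deposited series table holds a linear ratio, on the values the processed signal divided by a factor near the 75th percentile of each array, and it served as an alternative. Probes were named through RefSeq accessions (27509 of 55681 matched a gene, 49.4%), with symbols, chromosomes and promoters from a GRCm38.p6 table. A gene was read from its brightest probe. Genes above background on at least 2 of the 8 arrays (13182) entered a linear model of limma 3.58.1 (R 4.3.3), additive in cell type and genotype, on values as measured with dim ones included, and p-values were adjusted by Benjamini-Hochberg over all of them. The fit takes the arrays of the 2 cell types as repeats of a genotype, so its p-values measure the spread between these arrays, and nothing shows that they came from separate animals. The script was checked on simulated data.

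The genes, the B-lineage list, the marker lists and the tests were chosen with earlier results of these data known. The text names the 10 genes, other B-lineage genes called in a contrast or 2-fold apart in both fractions, genes among the 8 most similar, checks of sex and sort, and Ezh2. Some results that this rule picks are not reported here. Rag1, Rag2, Dntt, Cd40, Cd79a and the later B cell genes were named after their values were seen. Alternatives were quantile normalization, the series table, normexp background correction with an offset of 50, averaging the probes of a gene, a common floor, other filters, keeping non-uniform spots, a trended variance prior, a looser adjusted p (0.10), a 4-fold threshold and leaving out each array. Dim arrays at their measured value were added after seeing the data. The number of arrays limits the precision.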

Additional observations from a re-analysis of the deposited data

Results flagged for a closer look

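For 2 genes the difference between genotypes pointed in opposite directions in the fractions. Ly6d differed by -1.64 in MEP and by 0.18 in LSK between the double mutant and Ezh2-deleted arrays. Cd79b differed by 0.31 in MEP and by -0.29 in LSK between the double mutant and JAK2V617F arrays. The Ly6d difference in LSK and both of these Cd79b differences were under 2-fold, so the opposite signs rest on small differences. For 2 genes the difference that goes with JAK2V617F pointed in opposite directions with and without Ezh2. Vpreb1 differed by -3.13 in MEP with Ezh2 deleted (double mutant minus Ezh2-deleted) and by 0.63 with Ezh2 intact (JAK2V617F minus WT). Cd79b differed by -1.63 in MEP with Ezh2 deleted and by 0.32 with Ezh2 intact. In LSK Vpreb1 differed by -3.27 with Ezh2 deleted and by 0.24 with Ezh2 intact. For Cd79b the LSK differences were -0.02 and 0.41, so its opposite sign there rests on a difference near 0. All are log2 differences between single arrays, and these 4 contrasts between differences were not tested.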

How the results depend on the processing

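No paired analysis was possible because every replicate number in the labels is 1, so the numbers pair nothing beyond the cell type, which the fit holds as a term. Of 302 alternative values of the counts, 272 stayed within 1.5 times the value reported, 16 were lower and 14 higher. Members at least 4-fold higher in the double mutant than in JAK2V617F numbered 2 in MEP and 3 in LSK (4 and 6 at 2-fold), and normexp gave 3 in LSK. For MEP against LSK, 1 of the 10 genes was called higher with no filter, with a variance trend or at an adjusted p under 0.10 (0 reported), and with 1 array left out 3 to 4 were lower and 0 to 1 higher. The gain is Vpreb3 in the trend fit (limma adjusted p = 0.0492) and without the Ezh2-deleted LSK or MEP array (limma adjusted p = 0.043). The fourth lower gene is Ebf1 without either WT array (limma adjusted p = 0.0494), Mzb1 without either JAK2V617F array (0.025), or Vpreb1 with normexp (0.0282), a trend (0.0376) or genes above background on all 8 arrays (0.025). For JAK2V617F against WT, 1 gene, Blnk, was called lower among genes above background on all 8 arrays (limma adjusted p = 0.0015) or with a trend (0.0161), and 0 to 1 were with 1 array left out (1, Igll1, without the WT LSK array, where WT rests on 1 array assumed to vary like the others). Of the other B-lineage genes called lower in the double mutant than in Ezh2-deleted cells (1 reported), quantile normalization and no filter gave 0, normexp 3 and a common floor 2, and 1 array left out gave 0 to 3 (3 without either WT array, 0 without either JAK2V617F or double mutant array or the Ezh2-deleted MEP array). Those higher in Ezh2-deleted than in WT (3 reported) were 1 with no filter and 1 to 4 with 1 array left out (1 without either JAK2V617F array), and those higher in double mutant than in JAK2V617F were 0 to 1 (1 without either Ezh2-deleted array). For MEP against LSK the list had 21 lower among genes above background on all 8 arrays (32 reported) and 29 to 33 with 1 array left out, and higher ones were 2 with a common floor, 3 among genes above background on all 8 arrays and 4 to 6 with 1 array left out. MEP minus LSK changed sign for Pou2af1 with a common floor (-0.0431) and for Ebf1 without either double mutant array (0.0228; range -0.7895 to 0.0228 with 1 array left out), and Pou2af1 and Ebf1 were not called there. Ebf1, Pou2af1 and Mzb1 compare mostly dim values in this contrast. Quantile normalization moved the median MEP minus LSK difference of all genes to 0.0060, against 0.12. Where no reason is given, the cause was not tested. Genes dim on most arrays carry bounds alone, and with 1 array per group the differences between single arrays have no error.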
